A study of Mus musculus with 9 samples.

Results

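The activin system was examined at the RNA level through 9 of the 25239 genes in the deposited table, namely the activin subunit genes Inhba and Inhbb, the follistatin genes Fst, Fstl1 and Fstl3, and the activin receptor genes Acvr1, Acvr1b, Acvr2a and Acvr2b. The genes were chosen by name from the family, with earlier results of the same libraries in view, so their levels and fold changes are given as a description with 95% confidence intervals and without p-values. The material was primary astrocytes, the main supportive glial cells of the brain, grown from the cerebral cortex of mouse pups at postnatal day 4 in medium with horse serum and fetal bovine serum. Day 1 cultures received 200 µM hydrogen peroxide (H2O2) for 3 h, were washed and were collected 24 h later. Day 3 cultures received the same exposure and were collected 72 h after the wash. Control cultures were untreated, and the labels give them no collection time. Each group had 3 libraries of polyadenylated RNA, and the labels give no strain, sex or genotype and do not say whether replicates were separate cultures, so the spread between them may be technical.

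Activins are secreted dimers of beta subunits. Inhba encodes the subunit of activin A and Inhbb that of activin B. The ligand binds a type II receptor, ACVR2A or ACVR2B, which recruits and activates the type I receptor ACVR1B, and ACVR1B phosphorylates SMAD2 and SMAD3. Follistatin, the product of Fst, and its relative FSTL3 wrap around activin and keep it from its receptors, and Fst is itself induced by activin in several cell types. FSTL1 shares the follistatin-type domain but is not regarded as a classical activin trap, and ACVR1 is a type I receptor best known for signalling to SMAD1 and SMAD5 after binding of bone morphogenetic proteins (BMPs). In rodent brain, activin A is known as a factor that is induced by injury and supports neuron survival.

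Levels are FPKM, fragments scaled by gene length and by library size, as deposited, in the order of replicates 1, 2 and 3 and as mean ± SD with n = 3. Fold changes come from one limma fit over the 12611 genes that averaged 1 FPKM or more, on log2(rescaled FPKM + 0.1), which understates the change of low genes, and a gene passed at a Benjamini-Hochberg adjusted p under 0.05. Of the 9 genes, 8 entered that fit, and each of the 8 had a mean over 1 FPKM in all 3 groups. Acvr2b averaged 0.927 FPKM over the 9 libraries, just under the filter, and its fold changes come from the same fit without the filter. Library totals worked out from the FPKM ran from 23032594 to 38414668 reads, and 1 FPKM of a gene of 2 kb stood for 46.1 to 76.8 reads. The ribosomal precursor Rn45s took 7.67% to 9.36% of reads on day 1, 9.15% to 11.1% on day 3 and 9.41% to 11.9% in control, and its part in the results was not tested beyond leaving out the libraries with the highest share.

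The labelled cell type was checked against its markers. The 9 astrocyte markers were all in the fit and summed to 2050 to 2310 FPKM on day 1, 2550 to 2580 FPKM on day 3 and 2770 to 2840 FPKM in control, with mean Gfap levels of 1235 FPKM on day 1, 1333 FPKM on day 3 and 1493 FPKM in control. Markers of other cells were also found, though several were near 0. No marker gene was at 0 in all libraries, and the endothelial gene Cldn5 was at 0 in every day 1 and day 3 library. In control, the endothelial gene Pecam1 averaged 0.036 FPKM and the neuron gene Rbfox3 0.045 FPKM. A level above 0 does not by itself show that such cells were present. The 12 microglia markers summed to 99.9 to 108 FPKM on day 1, 211 to 274 FPKM on day 3 and 259 to 280 FPKM in control. The 7 fibroblast markers summed to 346 to 349 FPKM on day 1, 328 to 361 FPKM on day 3 and 292 to 298 FPKM in control. Most of that sum is the collagen gene Col3a1, and the other 6 summed to 64.7 to 66.2 FPKM on day 1, 118 to 123 FPKM on day 3 and 115 to 120 FPKM in control. The 8 mural cell markers, most of whose sum is the smooth muscle actin gene Acta2, summed to 1030 to 1080 FPKM on day 1, 404 to 468 FPKM on day 3 and 492 to 522 FPKM in control. The 8 oligodendrocyte lineage markers summed to 63.5 to 71.7 FPKM on day 1, 101 to 106 FPKM on day 3 and 160 to 167 FPKM in control, and the 5 ependymal markers to 74.1 to 83.0 FPKM on day 1, 115 to 131 FPKM on day 3 and 126 to 140 FPKM in control. The 5 neuron markers summed to 74.1 to 78.2 FPKM on day 1, 75.6 to 76.7 FPKM on day 3 and 68.4 to 69.7 FPKM in control, and the 6 endothelial markers to 11.6 to 12.4 FPKM on day 1, 14.2 to 15.2 FPKM on day 3 and 12.2 to 13.1 FPKM in control. Most of the neuron sum is Tubb3 and Stmn2, and most of the endothelial sum is Cdh5. The other neuron and endothelial markers averaged under 1 FPKM over the 9 libraries. Against control, 2 astrocyte markers passed as higher and 6 as lower on day 1, as did 1 and 10 of the 11 microglia markers in the fit, 2 and 4 of the 6 fibroblast markers, and 3 and 0 of the 4 mural markers. All 7 oligodendrocyte lineage and all 4 ependymal markers in the fit passed as lower on day 1. The 2 neuron markers in the fit passed as higher on both days. On day 3 all 7 oligodendrocyte lineage markers, 3 astrocyte markers and 1 mural marker passed as lower. Of the fibroblast markers 2 passed as higher and 1 as lower, and 1 endothelial marker passed as higher. No microglia or ependymal marker passed on day 3. Over all genes in the fit, 31.1% passed as higher and 31.1% as lower on day 1, and 7.37% and 6.45% on day 3.

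Coordinates are those of RefSeq on the mouse genome build GRCm38. Inhba lies on chr13:16004256-16031609 (plus strand) and Fst on chr13:114452262-114458989 (minus strand). Inhbb lies on chr1:119415463-119422248 (minus), Fstl1 on chr16:37777055-37836516 (plus) and Fstl3 on chr10:79777274-79782630 (plus). Acvr1 lies on chr2:58446438-58566828 (minus), Acvr2a on chr2:48814109-48903264 (plus), Acvr1b on chr15:101174072-101213684 (plus) and Acvr2b on chr9:119401583-119442148 (plus). RefSeq promoter windows of 300 bases (GRCm38.p6, 250 before to 50 after the start) matched 8 of the 9 symbols, all but Fst. The Inhba window stands apart in composition, with 47.7% G and C against 64.3% to 83.7% in the other 7. It was the only one of the 8 without a GC box (GGGCGG), a motif found in 35.7% of 32851 mouse promoter windows of this length when both strands are searched. A TATA motif (TATAAA) occurred in 13.6% of all windows and in those of Inhba and Fstl3. The SMAD box (CAGACA) occurred in 6913 of the 32851 windows and, among the 8, in Fstl3 alone. None of the 8 windows held the AP-1 motif TGANTCA (7.81% of all windows), the cyclic AMP response element TGACGTCA (1.79%), the antioxidant response element TGACNNNGC (12.4%) or the TEAD motif CATTCC (14.7%). The start used is that of a transcript, which for Inhba and Acvr2b lies inside the gene range given above, at chr13:16011851 for Inhba. The 250 bases before the start are shown for Inhba, the gene with the largest change, and for Fstl3, the follistatin-family gene whose window holds both a TATA motif and a SMAD box. Capitals mark motif matches. In Inhba the capitals are a TATA motif that begins 91 bases before the start. In Fstl3 they are, from left to right, the SMAD box read on the minus strand at 162 bases before the start, GC boxes read on the minus strand that overlap in pairs, and the TATA motif read on the minus strand at 29 bases before the start. The Inhba bases are chr13:16011601-16011850 and the Fstl3 bases chr10:79777024-79777273, both on the plus strand.
Inhba: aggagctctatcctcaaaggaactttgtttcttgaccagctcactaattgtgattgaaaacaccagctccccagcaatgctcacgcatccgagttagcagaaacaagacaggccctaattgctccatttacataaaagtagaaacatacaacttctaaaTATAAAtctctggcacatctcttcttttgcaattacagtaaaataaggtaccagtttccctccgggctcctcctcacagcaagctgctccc
Fstl3: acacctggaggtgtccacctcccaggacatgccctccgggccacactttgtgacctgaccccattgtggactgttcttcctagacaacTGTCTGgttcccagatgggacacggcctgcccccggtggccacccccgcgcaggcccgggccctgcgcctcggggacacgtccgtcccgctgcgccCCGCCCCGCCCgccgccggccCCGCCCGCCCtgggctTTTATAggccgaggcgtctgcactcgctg

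Inhba showed the largest change in the family. Its levels were 14.6, 15.4 and 18.2 FPKM on day 1, 3.64, 3.25 and 4.02 FPKM on day 3, and 2.69, 2.49 and 2.54 FPKM in control, from 510 to 2740 reads a library. All 3 groups were separate, with day 1 far above the others and day 3 a little above control. The day 1 mean of 16.1 ± 1.86 FPKM was 6.16-fold the control mean of 2.57 ± 0.101 FPKM on the fitted scale (95% interval 5.35 to 7.10, log2 2.62), the 8th highest fold change of 12611 genes. On day 3 the mean of 3.64 ± 0.387 FPKM was still 1.41-fold that of control (1.22 to 1.62, log2 0.49). Day 3 was 4.38-fold lower than day 1 (3.80 to 5.04, log2 -2.13), the 7th lowest fold change between the days.

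**Figure D1:**
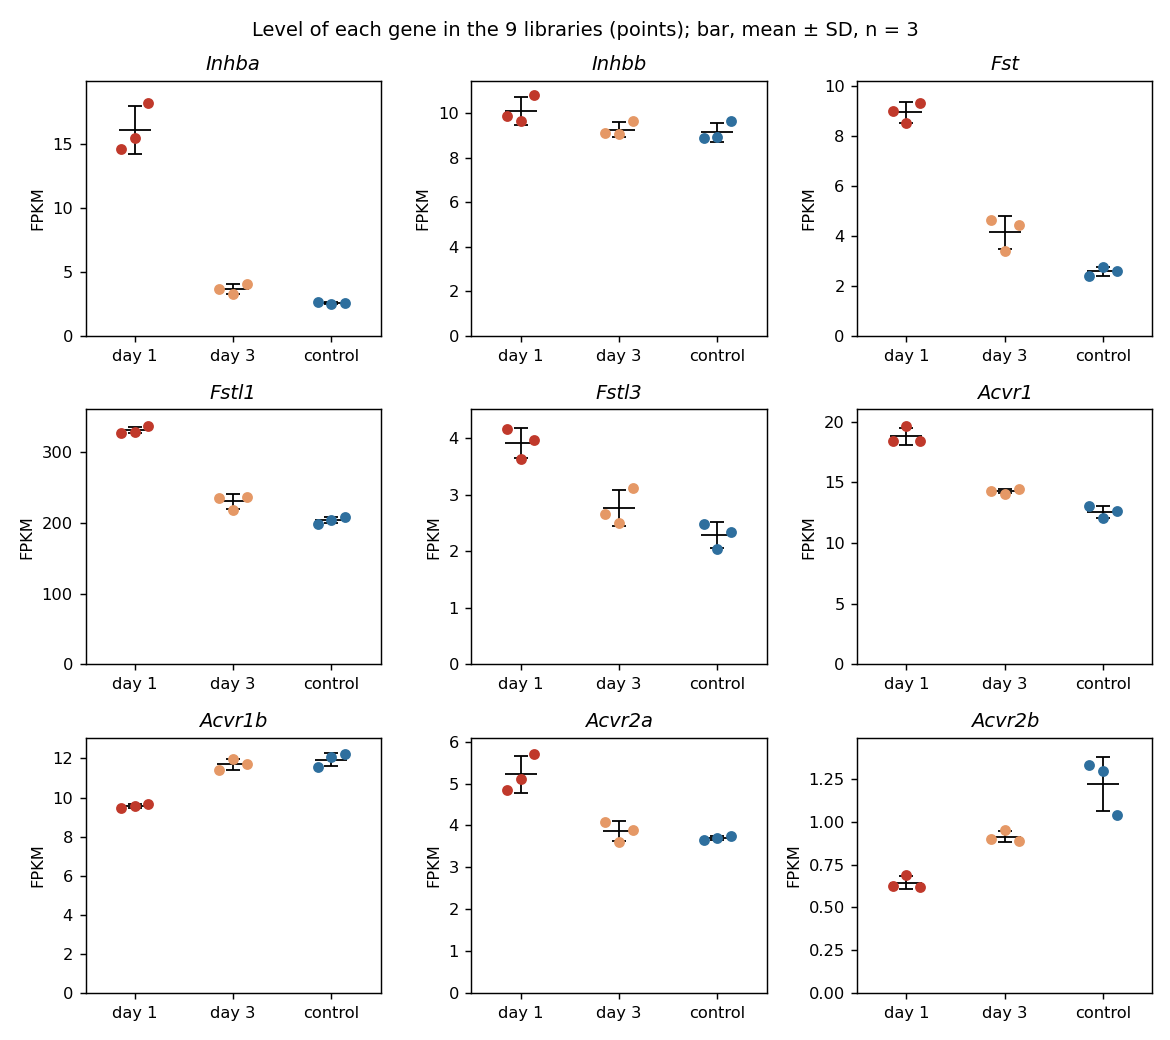
FPKM of each of the 9 genes in every library (points) with the group mean and SD (bars), in the order day 1, day 3 and control. Inhba and Fst stand highest on day 1 and keep a smaller excess on day 3, Inhbb stays between 8.87 and 10.8 FPKM in all libraries, and Acvr1b and Acvr2b are lowest on day 1.

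Inhbb, the activin B subunit gene, hardly moved beside it. Its levels were 9.84, 9.62 and 10.8 FPKM on day 1, 9.08, 9.05 and 9.63 FPKM on day 3, and 8.87, 8.91 and 9.62 FPKM in control. The day 1 and control libraries touched without overlapping, and the day 3 libraries overlapped both. On day 1 Inhbb was 1.13-fold control (1.04 to 1.22, log2 0.17), and it no longer passed the threshold without control replicate 2 (log2 0.15) or without day 1 replicate 3 (log2 0.11). The day 3 level was 1.03-fold control (0.943 to 1.11) and 1.10-fold lower than day 1 (1.01 to 1.20), and neither difference passed.

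The make-up of the activin subunit RNA therefore differed between groups. Inhba made up 59.8%, 61.6% and 62.8% of the summed Inhba and Inhbb FPKM on day 1, 28.6%, 26.4% and 29.5% on day 3, and 23.3%, 21.9% and 20.9% in control. Inhba was the larger part in the day 1 libraries only, and the 3 groups did not overlap. The summed level was 26.2 ± 2.44 FPKM on day 1, 12.9 ± 0.689 FPKM on day 3 and 11.7 ± 0.399 FPKM in control. The gene lengths behind the FPKM, 6378 bases for Inhba and 4257 bases for Inhbb, were close to the GENCODE M21 exon lengths of 6390 and 4255 bases.

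Fst, the activin trap, moved in the same direction as Inhba and by less. Its levels were 9.01, 8.52 and 9.35 FPKM on day 1, 4.63, 3.41 and 4.43 FPKM on day 3, and 2.413, 2.766 and 2.596 FPKM in control, from 209 to 679 reads a library. Each group stood apart, with day 3 between the other groups and spread more widely. Fst on day 1 was 3.44-fold control (2.97 to 3.99, log2 1.78), the 42nd highest fold change, and on day 3 it was 1.59-fold control (1.37 to 1.84, log2 0.67), the 45th highest in that comparison. Day 3 was 2.17-fold lower than day 1 (1.87 to 2.52, log2 -1.12). An antisense gene model, Gm47040, shares 115 exon bases with Fst, and the sources used here do not give the handling of strand.

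Fstl3, which like follistatin binds activin, had the lowest mean deposited FPKM of the follistatin-family genes in each group. With GENCODE M21 exon lengths it averaged 1.83 FPKM in control, above Fst at 1.62 FPKM. Values at GENCODE M21 lengths, here and below, rescale the deposited FPKM without recounting reads over those exons. As deposited, Fstl3 had 4.16, 3.62 and 3.96 FPKM on day 1, 2.67, 2.50 and 3.12 FPKM on day 3, and 2.49, 2.04 and 2.34 FPKM in control, from 144 to 224 reads a library. The lowest day 3 library lay just above the highest control library, and day 1 was clear of both groups. Fstl3 was 1.72-fold control on day 1 (1.47 to 2.01, log2 0.78) and 1.42-fold lower on day 3 than on day 1 (1.22 to 1.66, log2 -0.51). On day 3 it was 1.21-fold control (1.04 to 1.41, log2 0.28), which did not pass over all genes. The Prss57 gene shares 1157 exon bases with Fstl3 on the other strand and averaged 0.0494 FPKM.

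Fstl1, a secreted glycoprotein gene, was the most abundant of the 9 in every library. It had 327.9, 329.3 and 336.5 FPKM on day 1, 235.6, 218.4 and 237.4 FPKM on day 3, and 199.1, 204.7 and 208.4 FPKM in control, from 21756 to 33103 reads a library. No groups overlapped, and day 3 lay nearer to control than to day 1. The fold change was 1.66 on day 1 (1.58 to 1.74, log2 0.73) and 1.14 on day 3 (1.09 to 1.20, log2 0.19), and day 3 was 1.45-fold lower than day 1 (1.39 to 1.52, log2 -0.54).

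The balance of Inhba to Fst RNA was highest on day 1. The ratio of their FPKM was 1.62, 1.81 and 1.94 on day 1, 0.785, 0.954 and 0.908 on day 3, and 1.11, 0.902 and 0.978 in control. Day 1 stood clear of both other groups, while day 3 (mean 0.882 ± 0.0871) and control (mean 0.998 ± 0.108) overlapped. The absolute ratio depends on gene length: with GENCODE M21 exon lengths, where Fst measures 4589 instead of 2861 bases, the means became 2.87 on day 1, 1.41 on day 3 and 1.60 in control, in the same order. Counting both subunits against both activin-binding genes put control highest. The ratio of Inhba and Inhbb to Fst and Fstl3 was 2.03 ± 0.161 on day 1, 1.88 ± 0.180 on day 3 and 2.40 ± 0.0563 in control. The control libraries lay above all others, while day 1 (1.86 to 2.18) and day 3 (1.74 to 2.08) overlapped. The summed Fst and Fstl3 level was 12.9 ± 0.635 FPKM on day 1, 6.92 ± 0.886 FPKM on day 3 and 4.88 ± 0.0677 FPKM in control.

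**Figure D2:**
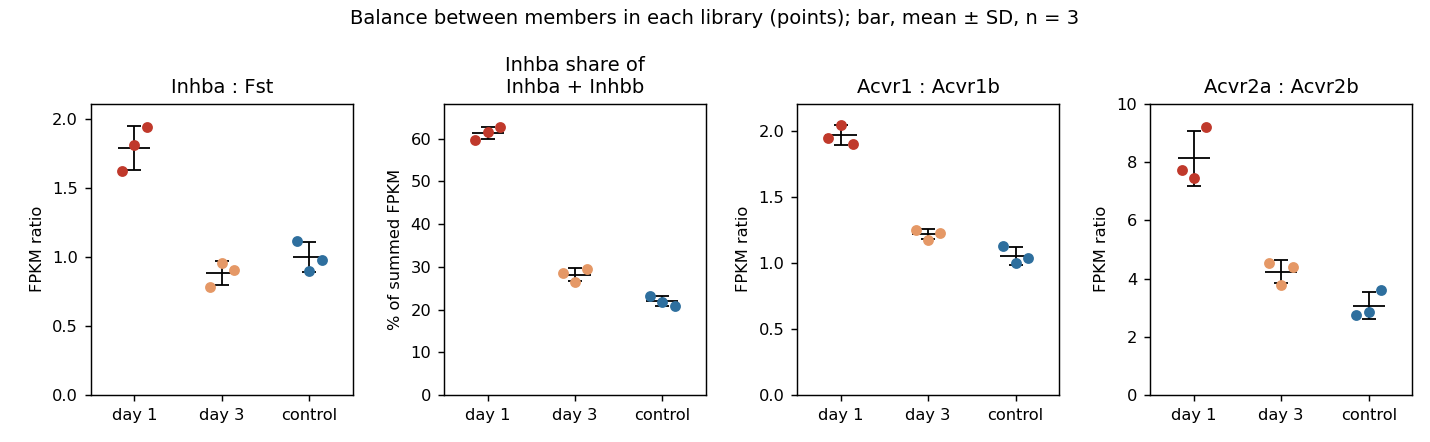
Ratios of FPKM between family members in each library (points) with group means and SD (bars), in the order day 1, day 3 and control. Inhba to Fst and the Inhba share are highest on day 1, and Acvr2a to Acvr2b has a mean of 8.13 on day 1, 4.23 on day 3 and 3.06 in control.

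Each receptor gene had a smaller fold change than Inhba and Fst in all 3 comparisons. Acvr1, the BMP-linked type I receptor gene, had 18.44, 19.63 and 18.39 FPKM on day 1, 14.28, 14.08 and 14.43 FPKM on day 3, and 13.05, 12.04 and 12.67 FPKM in control. The groups were separate, with day 3 close to control. Acvr1 was 1.53-fold control on day 1 (1.43 to 1.62, log2 0.61) and 1.15-fold on day 3 (1.08 to 1.22, log2 0.20), and it was 1.33-fold lower on day 3 than on day 1 (1.25 to 1.42).

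Acvr1b, the type I receptor gene for activins, went the other way on day 1. It had 9.45, 9.58 and 9.66 FPKM on day 1, 11.41, 11.96 and 11.73 FPKM on day 3, and 11.55, 12.06 and 12.21 FPKM in control. Every day 1 library lay below every other library, and day 3 overlapped control. The level was 1.22-fold lower on day 1 than in control (1.15 to 1.29, log2 -0.28), 0.991-fold control on day 3 (0.938 to 1.05, log2 -0.01) and 1.21-fold higher on day 3 than on day 1 (1.14 to 1.28). The ratio of Acvr1 to Acvr1b was 1.97 ± 0.0744 on day 1, 1.22 ± 0.0382 on day 3 and 1.06 ± 0.0677 in control. With GENCODE M21 exon lengths the same ratio was 1.40 on day 1, 0.868 on day 3 and 0.751 in control, so which of the pair was more abundant outside day 1 depends on the lengths used.

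The type II receptor genes also moved in opposite directions on day 1. Acvr2a had 4.84, 5.12 and 5.69 FPKM on day 1, 4.09, 3.60 and 3.89 FPKM on day 3, and 3.65, 3.71 and 3.74 FPKM in control. Day 1 was clear of both groups, which overlapped each other. It was 1.43-fold control on day 1 (1.29 to 1.59, log2 0.51), 1.05-fold on day 3 (0.948 to 1.17, log2 0.08) and 1.36-fold lower on day 3 than on day 1 (1.22 to 1.51). The Orc4 gene on the other strand, at 6.20 FPKM on average, shares 446 exon bases with Acvr2a, whose gene length was 5681 bases.

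Acvr2b had the lowest deposited FPKM of the 9 genes in every library, a rank that depends on its deposited length of 10666 bases. Its levels were 0.626, 0.687 and 0.619 FPKM on day 1, 0.902, 0.952 and 0.888 FPKM on day 3, and 1.33, 1.30 and 1.04 FPKM in control, from 152 to 531 reads a library. The groups did not overlap, and day 3 lay between day 1 and control. In the unfiltered fit it was 1.74-fold lower than control on day 1 (1.43 to 2.11, log2 -0.80) and 1.29-fold lower on day 3 (1.06 to 1.56, log2 -0.36), and it was 1.35-fold higher on day 3 than on day 1 (1.11 to 1.64). The ratio of Acvr2a to Acvr2b was 7.74, 7.46 and 9.20 on day 1, 4.53, 3.79 and 4.39 on day 3, and 2.74, 2.86 and 3.59 in control. With GENCODE M21 exon lengths, where Acvr2b measures 3928 bases, the mean ratios were 2.99 on day 1, 1.56 on day 3 and 1.13 in control.

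Summed over the pairs, the deposited receptor levels varied less than their parts. Acvr1 and Acvr1b together had 28.4 ± 0.715 FPKM on day 1, 26.0 ± 0.243 FPKM on day 3 and 24.5 ± 0.395 FPKM in control. Acvr2a and Acvr2b together had 5.86 ± 0.424 FPKM on day 1, 4.78 ± 0.216 FPKM on day 3 and 4.92 ± 0.122 FPKM in control. Type I exceeded type II RNA per length 4.86 ± 0.360 times on day 1, 5.45 ± 0.283 times on day 3 and 4.99 ± 0.198 times in control. Rescaled to GENCODE M21 exon lengths, the type II sum was 6.96 ± 0.415 FPKM on day 1, 6.34 ± 0.177 FPKM on day 3 and 7.01 ± 0.390 FPKM in control. It then had no day 1 excess over control. The rescaling gives Acvr2b more weight through a shorter length over which its reads were not recounted. It therefore cannot decide whether the type II sum differed on day 1. The ratio of type I to type II was then 3.30 ± 0.192 on day 1, 3.45 ± 0.131 on day 3 and 2.98 ± 0.213 in control.

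The order of the deposited levels differed between groups, most of all in the place of Inhba. On day 1 it ran from Fstl1 over Acvr1, Inhba, Inhbb, Acvr1b, Fst, Acvr2a and Fstl3 to Acvr2b, and of these neighbours only Inhbb and Acvr1b overlapped. On day 3 the order was Fstl1, Acvr1, Acvr1b, Inhbb, Fst, Acvr2a, Inhba, Fstl3 and Acvr2b, with overlaps between Fst and Acvr2a and between Acvr2a and Inhba. In control it was Fstl1, Acvr1, Acvr1b, Inhbb, Acvr2a, Fst, Inhba, Fstl3 and Acvr2b, with overlaps between Acvr1 and Acvr1b and between Fst and Inhba. Much of this order rests on the deposited lengths. With GENCODE M21 exon lengths Inhba stood above Acvr1 on day 1, at 16.1 and 13.4 FPKM. On day 3 and in control Acvr1b stood above Acvr1, and Acvr2b, at 3.32 FPKM in control, stood above Inhba, Fstl3 and Fst there. For Acvr2b this divides reads counted over 10666 bases by 3928 bases, which can overstate its level. For Fst, with 2861 and 4589 bases, the level can be understated. These placements are therefore not settled.

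Counted over the family, 7 of the 8 genes in the fit passed as higher on day 1 than in control, where 31.1% of all tested genes did, and 1 of 8, Acvr1b, passed as lower, where 31.1% of all tested genes did. The median log2 fold change was 0.67 over the 8 genes and -0.0014 over all genes, and the central 90% of all genes ran from -0.67 to 0.54. On day 3 against control, 4 of 8 passed as higher (Inhba, Fst, Fstl1 and Acvr1) against 7.37% of all genes, and 0 of 8 passed as lower against 6.45%. The medians there were 0.19 over the 8 genes and 0.0060 over all genes. Between day 3 and day 1, 1 of 8 passed as higher on day 3 (Acvr1b) against 27.9% of all genes, and 6 of 8 passed as lower against 28.4%, with medians of -0.47 over the 8 genes and 0.00079 over all genes. The comparisons of day 1 and of day 3 with control share the control libraries, and because the genes were selected with these data in view nothing is read from the counts. In bulk RNA, fewer cells of a type and less RNA per cell cannot be told apart, and the marker sums given above moved with the groups while their part in these differences was not tested.

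**Figure D3:**
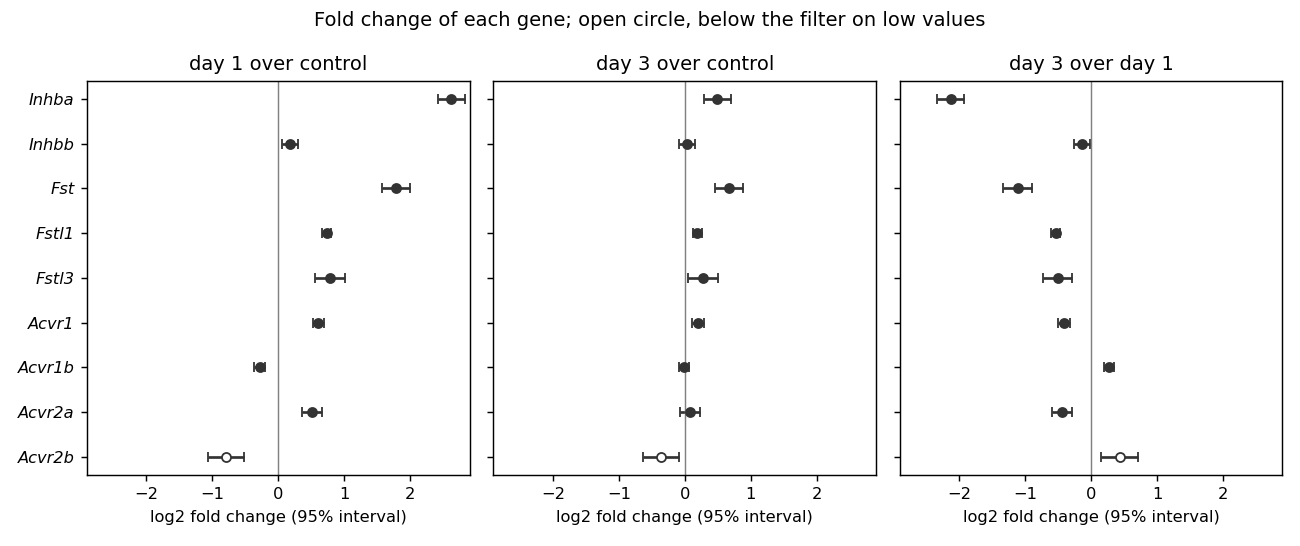
Log2 fold change of each of the 9 genes (points) with its 95% confidence interval (lines) for day 1 against control, day 3 against control and day 3 against day 1. Inhba has a log2 fold change of 2.62 on day 1 and -2.13 between the days, and the Acvr1b and Acvr2b points lie on the other side of 0 from Fst in day 1 against control.

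The genes with the most similar pattern were taken as those with the smallest root-mean-square (RMS) difference in log2 level over the 9 libraries, each gene centred on its control mean. For Inhba the nearest were Crabp2, Lrrc32 and Lrrc17, at RMS differences of 0.12 to 0.14. Crabp2, a retinoic acid carrier gene, averaged 14.6 FPKM on day 1, 3.54 FPKM on day 3 and 2.52 FPKM in control. Lrrc32, whose product docks latent TGF-beta at the cell surface, averaged 22.1 FPKM on day 1, 5.99 FPKM on day 3 and 3.66 FPKM in control. Lrrc17, which encodes a secreted leucine-rich repeat protein, averaged 20.9 FPKM on day 1, 4.68 FPKM on day 3 and 3.69 FPKM in control. That all 3 share with Inhba a steep day 1 level and a small remainder on day 3 follows from how they were chosen.

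For Fst the nearest genes were Hmga2, Thbs2, Dnm3os, Srpx2 and Col7a1, at RMS differences of 0.083 to 0.15. Hmga2, an architectural chromatin protein gene, averaged 8.34 FPKM on day 1, 3.87 FPKM on day 3 and 2.46 FPKM in control. Its similar proportions follow from the choice, and its levels were close to those of Fst as deposited. At the GENCODE M21 exon length, Fst averaged 5.59 FPKM on day 1, 2.59 FPKM on day 3 and 1.62 FPKM in control. Thbs2, a matricellular thrombospondin gene, averaged 231 FPKM on day 1, 103 FPKM on day 3 and 68.0 FPKM in control. Col7a1, the anchoring fibril collagen gene, averaged 54.3 FPKM on day 1, 20.9 FPKM on day 3 and 14.8 FPKM in control. Within the family, the closest profiles were Fstl1 and Acvr1 (0.089), Fstl3 and Fstl1 (0.12) and Acvr2a and Acvr1 (0.12), whereas Inhba and its nearest member, Fst, were 0.51 apart.

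**Figure D4:**
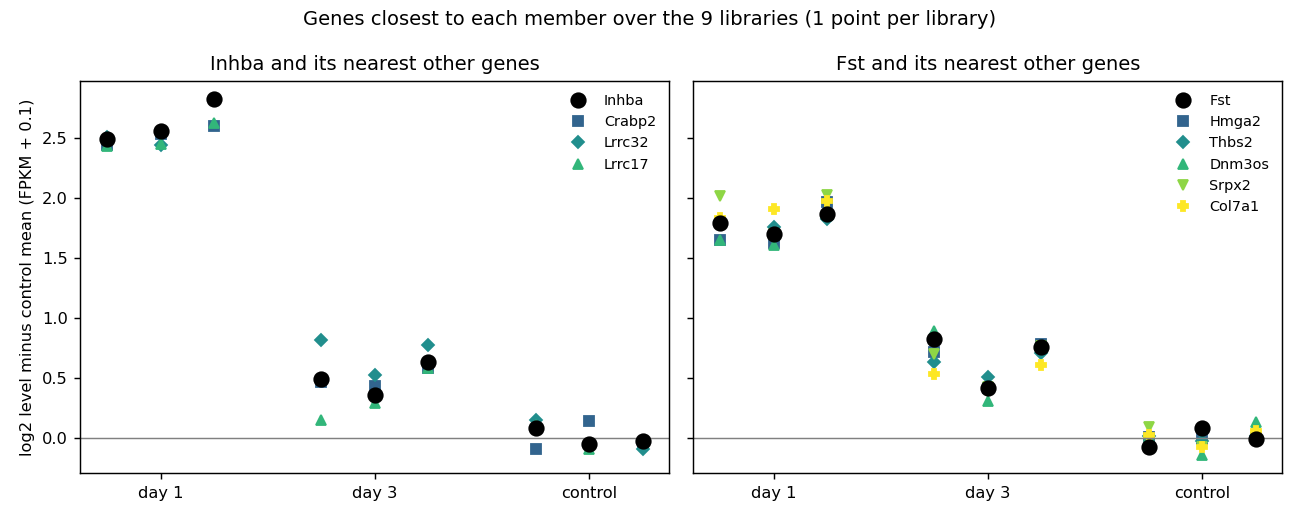
Log2 level relative to the control mean in each library (points) for Inhba and Fst and the genes nearest to each, with libraries in the order day 1, day 3 and control. 3 genes follow Inhba at RMS differences of 0.12 to 0.14 and 5 follow Fst at 0.083 to 0.15.

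Around the family, 58 other pathway genes in 5 lists were counted, of which 44 were in the fit. On day 1, 29 of the 44 rose, 7 fell and 8 did not pass, where 31.1% of all tested genes rose and 31.1% fell, with a median log2 fold change of 0.19 against -0.0014 for all genes. On day 3, 15 rose, 1 fell and 28 did not pass, where 7.37% of all tested genes rose and 6.45% fell, with a median of 0.066 against 0.0060. Without day 3 replicate 3 only 9 rose on day 3 and 0 fell, while over all genes the number past the threshold was then 1025, and 1036 without day 3 replicate 1, against 1742 with all libraries. Between day 3 and day 1, 8 rose, 21 fell and 15 did not pass, where 27.9% of all tested genes rose and 28.4% fell, with a median of -0.086 against 0.00079.

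Most genes in the list of other ligands and their co-factors were scarce. Inha and Gdf11 reached a mean of 1 FPKM, the other 7 genes of the list did not, and Gdf1 was listed at 0 in all 9 libraries. On day 3 and in control, deposited Gdf11 levels were above those of Inhbb, which averaged 9.25 and 9.13 FPKM. Gdf11, a ligand that uses the same type II receptors, had 8.86 ± 0.238 FPKM on day 1, 11.2 ± 0.318 FPKM on day 3 and 12.3 ± 0.177 FPKM in control, and it fell on day 1 (log2 -0.43, limma adjusted p = 1.7e-06). Inha, the inhibin alpha subunit gene, averaged 3.01 FPKM on day 1, 3.84 FPKM on day 3 and 3.31 FPKM in control. Its day 3 rise (log2 0.22, limma adjusted p = 0.0436) had an adjusted p of 0.0542 to 0.177 under the alternatives that ended the call. Acvr1c, the gene for another activin-class type I receptor, stayed under 1 FPKM and was not tested.

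Of the 8 other receptor and co-receptor genes in the fit, 5 rose and 3 fell on day 1, and 3 rose and 1 fell on day 3. Over all tested genes, 31.1% rose and 31.1% fell on day 1, and 7.37% rose and 6.45% fell on day 3. The 3 rises on day 3 became 0 without control replicate 2 or day 3 replicate 1, and 1 without control replicate 3 or day 3 replicate 3. Acvrl1, a BMP type I receptor gene best known from endothelium, rose on day 1 with 2.75 ± 0.291 FPKM against 1.30 ± 0.174 FPKM in control (log2 1.06, limma adjusted p = 2.67e-05). On day 3 it had 1.90 ± 0.183 FPKM (log2 0.54, adjusted p = 0.0166 by limma), with an adjusted p of 0.0544 without control replicate 2 and 0.0708 without day 3 replicate 1. Cdh5, the only endothelial marker in the fit, averaged 10.9 FPKM on day 1, 13.4 FPKM on day 3 and 11.1 FPKM in control. Of the low endothelial markers, Kdr (0.801 against 1.16 FPKM) and Tek (0.192 against 0.460 FPKM) were lower on day 1 than in control. Pecam1 was higher (0.104 against 0.036 FPKM), and Cldn5 and Tie1 were near 0. The part of endothelial cells in the Acvrl1 difference was not tested. Tmeff1, which encodes a membrane protein with follistatin-type domains, rose on day 1 (16.6 ± 0.305 FPKM, against 12.2 ± 0.674 FPKM in control, log2 0.47, limma adjusted p = 1.12e-05). Its day 3 mean of 10.8 ± 0.353 FPKM was below control (log2 -0.16, limma adjusted p = 0.0486), with an adjusted p of 0.0634 to 0.167 under the alternatives that ended the call.

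Tgfbr3, the betaglycan gene, whose product helps inhibin bind type II receptors, showed the largest fall of the lists. It had 0.858 ± 0.0486 FPKM on day 1, 2.86 ± 0.0720 FPKM on day 3 and 2.35 ± 0.122 FPKM in control (day 1 log2 -1.33, limma adjusted p = 1.96e-07). The day 3 rise over control (log2 0.29, limma adjusted p = 0.0324) did not pass when any one control or day 3 library was left out, at adjusted p values of 0.0521 to 0.116. Igsf1, whose product was first described as an inhibin-binding protein, fell on day 1 to 1.81 FPKM, against 2.96 FPKM in control (log2 -0.65, limma adjusted p = 1.38e-04).

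Of the convertases that cut the activin precursor, Furin rose on day 1 (34.1 ± 0.561 FPKM, against 29.9 ± 1.64 FPKM in control, log2 0.22, limma adjusted p = 5.47e-04), as did Pcsk6 (log2 0.20, limma adjusted p = 0.00215). The other genes of that list in the fit, Pcsk5 and Pcsk7, did not pass, and the secreted binders Fstl4, Fstl5, Wfikkn1 and Wfikkn2 averaged under 1 FPKM. On day 3 Furin alone of the 4 passed (log2 0.13, limma adjusted p = 0.0432), and the adjusted p was 0.0517 to 0.138 under the alternatives that ended the call. Over all tested genes, 31.1% rose on day 1 and 7.37% on day 3.

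Among the 17 SMAD genes and regulators in the fit, 9 rose and 3 fell on day 1. Over all tested genes, 31.1% rose and 31.1% fell. The largest day 1 rises in the list were those of Skil, a SMAD co-repressor gene, and Smad7, an inhibitory SMAD gene, both known as feedback inhibitors. Skil had 19.95 ± 0.342 FPKM on day 1, 14.8 ± 0.929 FPKM on day 3 and 13.0 ± 0.320 FPKM in control, with a day 1 log2 fold change of 0.64 (limma adjusted p = 3.72e-07) and a day 3 value of 0.19 (adjusted p = 0.0129). Smad7 had 6.81 ± 0.222 FPKM on day 1, 4.64 ± 0.156 FPKM on day 3 and 4.43 ± 0.100 FPKM in control, and only the day 1 rise passed (log2 0.64, limma adjusted p = 1.54e-06). The largest falls on day 1 were those of the repressor gene Tgif2 (log2 -0.46, limma adjusted p = 3.72e-04) and of Smad9, a BMP-class SMAD gene (log2 -0.18, limma adjusted p = 0.00312). On day 3, 3 of the list rose and 0 fell, where 7.37% of all tested genes rose and 6.45% fell. Among the 3 was Smurf2, a ubiquitin ligase gene (log2 0.17, limma adjusted p = 0.00731).

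All 13 target genes rose on day 1, where 31.1% of all tested genes rose, and 7 of them on day 3, where 7.37% did. These genes answer to TGF-beta and other ligands as well as to activin, and the list was chosen with earlier results of these data known, so it is not independent evidence of its direction. The 7 rises on day 3 became 6 without control replicate 1 or day 3 replicate 3. Without the 2 libraries with the highest Rn45s share, 5 rose and 1 fell, and without day 3 replicate 2, 7 rose and 1 fell. Ltbp2, a latent TGF-beta binding protein gene, had 48.8 ± 1.93 FPKM on day 1, 24.5 ± 2.91 FPKM on day 3 and 18.6 ± 0.742 FPKM in control (day 1 log2 1.42, limma adjusted p = 6.68e-08). Pmepa1, a feedback inhibitor of SMAD2 and SMAD3, had 112 ± 4.16 FPKM on day 1, 71.6 ± 3.63 FPKM on day 3 and 52.2 ± 3.41 FPKM in control (day 3 log2 0.47, limma adjusted p = 2.28e-04). The 9 genes known as SMAD2 and SMAD3 targets had a median log2 fold change of 0.61 on day 1 and 0.24 on day 3, where 7 of 9 passed. The 4 BMP-type targets (Id1, Id2, Id3 and Atoh8) had medians of 0.24 on day 1 and -0.04 on day 3, where 0 of 4 passed, and the difference between these groups of genes was not tested.

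**Figure D5:**
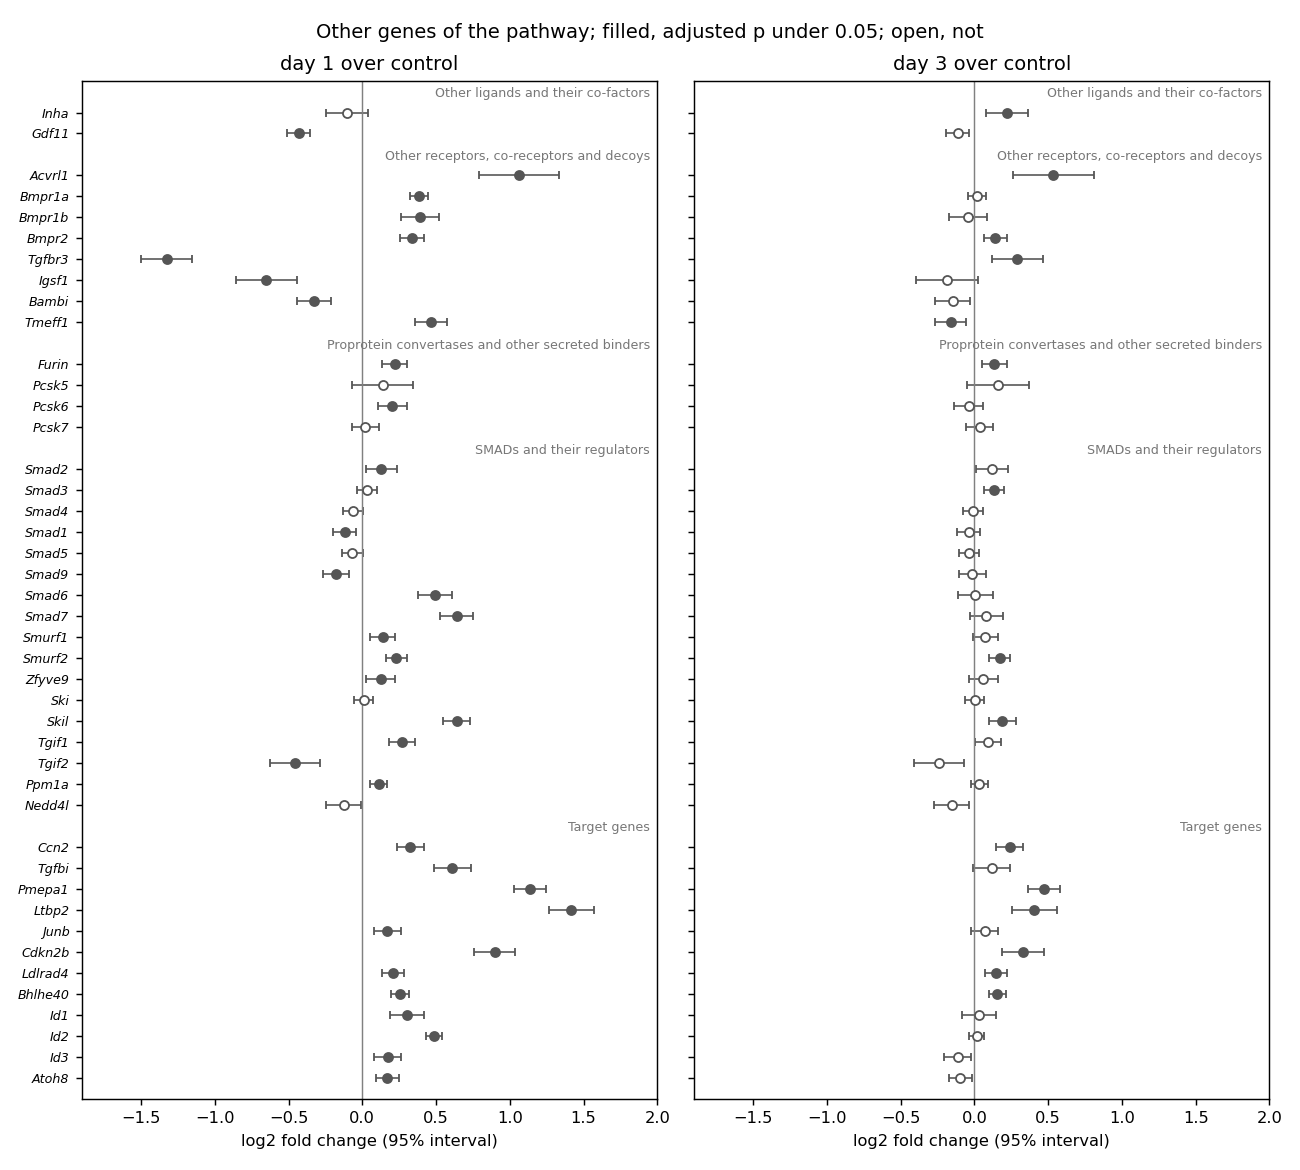
Log2 fold change of 43 of the 44 other pathway genes in the fit, by list, for day 1 against control and day 3 against control, with 95% confidence intervals (lines) and filled points for genes past the adjusted threshold. Ltbp2 is the highest point drawn at 1.42 on day 1 and Tgfbr3 the lowest at -1.33.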

How the data were processed

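RNA sequencing was analysed in 9 libraries of primary mouse cortical astrocytes, 3 per group. The deposited table holds FPKM computed by the authors for each library, and each column was matched to its library through the labels' descriptions. The submitters' processing notes name GRCm38 and mm10 as builds and list STAR 2.7.3a, cutadapt 2.6, FastQC 0.12.1 and DESeq2 as tools. The sources used here do not give the counting program, annotation or handling of strand, so reads of overlapping genes on opposite strands may be counted together.

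The FPKM of all 20350 genes above 0 gave whole reads to within 0.01 read, which supplied library totals and the reads behind each value. The precision of low genes is limited by these reads. FPKM were rescaled by median-of-ratios factors of 0.975 to 1.02, filtered at a mean of 1 FPKM over the 9 libraries (12611 genes kept) and fitted as log2(FPKM + 0.1) with limma 3.58.1 in R 4.3.3 (intensity trend, group as the only term, all libraries in 1 fit). Tests were two-sided with Benjamini-Hochberg adjustment over all genes in the fit. In simulated reads, the day 1 comparison called 45 of 67 genes changed by log2 0.25, 60 of 67 by 0.5 and 65 of 66 by 1.0. It also called 12 of 12411 unchanged genes. Far more genes passed in the data than were changed there, so the simulation does not check the scaling under such wide change. FPKM are not counts, so no count model was the main test.

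The 9 genes, the pathway and marker lists and the rules were chosen with earlier results of these data known. The naming rule took all 9 genes, the 5 genes nearest in pattern to Inhba and to Fst, and, of each pathway list with over 4 genes in the fit, up to 2 called genes with the largest rise and 2 with the largest fall in each comparison with control. A few genes chosen this way are left out of the text, though the counts of their lists include them. Other genes of the lists that are named were chosen after their values were seen. Alternatives covered the pseudocount, the filter, the scaling, limma-voom on the recovered reads, the libraries in the fit, the replicate number as a term and each library left out in turn. GENCODE M21 exon lengths and the fibroblast sum without Col3a1 were added after seeing the data. With those lengths the deposited FPKM were only rescaled, and no reads were recounted. Promoter windows came from RefSeq. Figures were drawn with matplotlib 3.10.9.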

Additional observations from a re-analysis of the deposited data

Results flagged for a closer look

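Outside the family, 2 pathway genes passed against control in opposite directions on day 1 and on day 3. Both days were set against the same control libraries, which have no collection time. A change in the effect of the exposure therefore cannot be told apart from a difference in collection time. For Tgfbr3 the log2 fold change against control was 1.62 higher on day 3 than on day 1 (limma adjusted p = 1.14e-07), with 0.858 ± 0.0486 FPKM on day 1, 2.86 ± 0.0720 FPKM on day 3 and 2.35 ± 0.122 FPKM in control (SD, n = 3). For Tmeff1 the log2 fold change was -0.63 on day 3 relative to day 1 (limma adjusted p = 1.99e-06), with 16.6 ± 0.305 FPKM on day 1, 10.8 ± 0.353 FPKM on day 3 and 12.2 ± 0.674 FPKM in control. In both genes the day 3 difference from control was small and did not pass under many alternatives, whereas the difference between the days was far past the threshold. Groups of 3 libraries were not searched for outlying libraries.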

How the results depend on the processing

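Of 432 recomputed fold changes of the 8 genes in the fit, 424 kept their direction and their side of the threshold, 0 reversed, 3 no longer passed and 5 newly passed. The 3 losses were all Inhbb on day 1, without control replicate 2, without day 1 replicate 3 and without the 2 libraries with the highest Rn45s share (control replicate 1 and day 3 replicate 2, a choice made after seeing the data). Newly passing were Inhbb between the days under quantile normalization, the replicate block, voom and without day 1 replicate 2, and Fstl3 on day 3 under the replicate block. With no filter on low values Acvr2b joined the fit, and 2 genes of the family were then lower on day 1 and 2 higher on day 3 than on day 1. The single other pathway gene lower on day 3 than in control (Tmeff1) became 0 with no filter or with only the 6 libraries compared, 3 with the FPKM as deposited or quantile normalized, and 6 with voom. Leaving out 1 library at a time gave 0 to 1 for that count and 9 to 14 for the pathway genes higher on day 3. It gave 1025 to 1764 genes past the threshold on day 3 over all genes, 6 to 7 family genes higher on day 1 and 6 to 7 lower on day 3 than on day 1. Tmeff1 itself passed as lower on day 3 only without control replicate 2 or without day 1 replicate 3. In the other leave-outs with a count of 1, the gene was a different one. Exon lengths of GENCODE M21, also chosen after seeing the data, moved the mean ratio of Inhba to Fst to 2.87 on day 1, 1.41 on day 3 and 1.60 in control, because both lengths enter the ratio. The causes of the other shifts were not tested. Libraries with the same replicate number did not deviate together (correlations of -0.079 to 0.11 over 9 pairs), so the numbers are not taken to pair them. With the replicate block, 5 family genes were higher on day 3, 7 were lower on day 3 than on day 1, and 7894, 1807 and 7167 genes passed for day 1 against control, day 3 against control and day 3 against day 1.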
